A study of Mus musculus with 24 samples.

Results

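The genes described are the caspases Casp1, Casp2, Casp4, Casp6, Casp8 and Casp9, and Apaf1, the scaffold of the apoptosome. They were chosen by name, through the annotation of the array, and 9 of the 22690 probesets carried 1 of these 7 names (of 12393 genes named in all). Casp9 and Apaf1 had 2 probesets each and the other genes 1. A probeset was tested when its signal was at least 32 on all 3 arrays of at least 1 condition, which 7 of the 9 passed. The probeset of Casp1 and 1 of those of Apaf1 did not pass, and their values are described without a call.

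The thymocytes came from female mice of 6 to 8 weeks on the B10 or NOD background, both carrying the H2k haplotype. All mice carried the transgenic 3A9 T cell receptor, which sees a peptide of hen egg lysozyme, and the mice labelled TCR insHEL also made that lysozyme under the insulin promoter. In each strain, pre-selection cells (PreS, CD4+CD8+CD69-1G12-) were sorted from TCR mice (3 arrays) and from TCR insHEL mice (3 arrays). Early single positive cells (CD4+CD8lowCD69+1G12+) were sorted from TCR mice, where they undergo positive selection (S+, 3 arrays), and from TCR insHEL mice, where they begin negative selection (S-, 3 arrays). The 24 arrays were hybridized with RNA from pools of 100000 to 1000000 sorted cells, amplified in 2 rounds. The PreS arrays of both genotypes were merged, which gave 6 in each strain. The S+ and S- groups are thus set apart from each other by the lysozyme transgene in the mouse, and the model covers 1 receptor only.

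Caspases are made as inactive precursors, and most of their control is by cleavage and assembly, so mRNA is a measure of supply and not of activity. Initiator caspases are switched on by platforms: Casp8 at death receptors through the adaptor FADD, Casp9 at the apoptosome that Apaf1 forms with cytochrome c released from mitochondria, and Casp2 at a complex of PIDD1 and CRADD. They cut effector caspases, of which Casp6 cleaves nuclear lamins. Casp1 and Casp4 (older name Casp11) are inflammatory caspases, which act in the processing of interleukin 1 and in the response to bacterial lipopolysaccharide inside the cell. In the thymus, cells with receptors for self antigen die by apoptosis, for which the mitochondrial route is the best known.

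Promoter windows are shown for the 3 members in which a searched motif was found. The windows are RefSeq sequence of build GRCm38.p6, on the plus strand, 250 bases ending just before a RefSeq transcript start. That start lies inside the gene bounds given below, by 11 bases in Casp4, 83 in Casp2 and 7269 in Casp8. All 7 members had a window, with 8 windows between them. In Casp4 and Casp8 capitals mark AANNGAAA, the core of the sites of interferon regulatory factors, and in Casp2 they mark TTTCCCGC, a site of the E2F factors. Both strands were searched.

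Casp4 at chr9:5308610-5308859: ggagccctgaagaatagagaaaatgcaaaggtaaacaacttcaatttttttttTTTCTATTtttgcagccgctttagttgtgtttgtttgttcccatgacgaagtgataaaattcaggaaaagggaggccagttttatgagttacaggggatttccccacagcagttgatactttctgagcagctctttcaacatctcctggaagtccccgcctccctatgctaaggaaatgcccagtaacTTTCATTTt

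Casp8 at chr1:58802252-58802501: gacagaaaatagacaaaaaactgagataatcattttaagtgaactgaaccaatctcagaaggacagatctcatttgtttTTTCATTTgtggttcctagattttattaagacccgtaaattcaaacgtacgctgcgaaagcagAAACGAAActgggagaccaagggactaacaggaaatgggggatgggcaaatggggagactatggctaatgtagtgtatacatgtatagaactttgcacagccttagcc

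Casp2 at chr6:42264735-42264984: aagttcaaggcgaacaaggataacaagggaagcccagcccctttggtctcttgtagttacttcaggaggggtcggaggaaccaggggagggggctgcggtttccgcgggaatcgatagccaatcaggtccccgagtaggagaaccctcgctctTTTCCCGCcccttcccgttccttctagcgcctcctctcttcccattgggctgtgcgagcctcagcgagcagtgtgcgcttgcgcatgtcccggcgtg

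Casp4 and Casp8 were the only members with AANNGAAA in a window of 300 bases (250 before and 50 after the start), and each held 2 matches. This motif is common and lay in 23.9% of all 32851 windows. TTTCCCGC was found in Casp2 alone among the members, and in 1.07% of all windows. Neither TTCNNNGAA, the core of STAT sites (8.30% of windows), nor TTTGGCGC, another E2F site (0.514%), was matched in a member. No overlap between matches of different motifs was seen in the members. These are matches of letters, and no binding was measured.

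Few of the members passed the test. In the comparisons with PreS cells, 1 of the 7 tested probesets passed the threshold (limma, adjusted p under 0.05 over 12838 probesets) in each case, and the gene was Casp4 in 3 of them and Casp6 in the other. Without the filter on low signals the only call left in these comparisons was that of Casp4 in NOD S- cells. Over all probesets 16.8% passed in B10 S+ cells, 11.2% in B10 S- cells, 14.8% in NOD S+ cells and 11.2% in NOD S- cells, so that 1 of 7 is close to the background. No member passed between S- and S+ cells, where the background was 1.67% in B10 and 0% in NOD. In NOD no probeset passed by limma or by the methods' t-test, 565 probesets had an unadjusted p under 0.05 in limma, and no member was among them. In bulk samples such as these, fewer cells that make an mRNA and less mRNA in each cell cannot be told apart.

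Summed signals of 8 markers of early single positive cells (such as Ccr7, Il7r and S1pr1) were 3082 to 4104 on PreS arrays and 6109 to 8477 on S+ and S- arrays, with no overlap. Of these, 7 passed as higher than PreS in B10 S+, 6 in B10 S-, 6 in NOD S+ and 5 in NOD S- cells, and none as lower. Cd4 differed by 0.08 in B10 S- cells and Cd5 by -0.29 in NOD S+ cells, and neither passed. Of 8 measured markers of double positive cells, 6, 6, 4 and 5 passed as lower in the same order, and 2, 0, 1 and 0 as higher. The markers of B cells (5 measured) summed to 110 to 484, those of thymic epithelium (5 measured) to 75.6 to 243 and those of red cell precursors (2 measured) to 12.3 to 299 over all arrays. Of the markers of other cells, those of myeloid and dendritic cells (9 measured, 7 tested) stood out on 3 arrays. Their summed signal was 2135 in NOD S+ replicate 1, 1706 in B10 S- replicate 3 and 1254 in NOD S+ replicate 2, against 277 to 903 on the other 21 arrays. The log2 ratio of the 3' to the 5' control probeset of Gapdh, a sign of RNA integrity and amplification, ran from 1.13 to 5.84 and was above 4 on 5 arrays. These 5 were NOD S+ replicates 1 and 2, B10 S+ replicate 1, and 1 PreS array each of NOD TCR and NOD TCR insHEL mice.

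Casp4, an inflammatory caspase (chromosome 9, 5308849 to 5336791, probeset 1449591_at), was higher after selection than before it. Its PreS signals ran from 1.9 to 18.5 in B10 (median 6.85, n = 6) and from 0.5 to 14.0 in NOD (median 4.25, n = 6). In B10 S+ cells the signals were 32.5, 29.0 and 16.8, and in B10 S- cells 20.3, 23.9 and 66.5. In NOD the S+ arrays held 42.1, 18.7 and 14.3 and the S- arrays 72.4, 39.4 and 38.0. Every NOD S- array thus lay above the highest PreS array of either strain.

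The test gave a rise of Casp4 in B10 S+ cells (log2 difference 1.97, 95% interval 0.70 to 3.23, limma adjusted p = 0.0340), where 1 S+ array lay below the highest PreS array. In B10 S- cells it rose by 2.26 (1.00 to 3.53, adjusted p = 0.0233), where all 3 raw signals lay above the 6 of PreS cells, but 1 array overlapped them on the standardized log2 scale that was tested. In NOD S- cells the difference was 3.39 (1.80 to 4.97, adjusted p = 0.00990, and 0.0318 without the filter on low signals), with no overlap on either scale. In NOD S+ cells the difference was 2.21 (0.62 to 3.80), with an adjusted p of 0.0603, and here too the raw signals were apart while the standardized values overlapped. S- and S+ cells did not differ beyond their spread, with a log2 difference of 0.30 (-1.16 to 1.75) in B10 and 1.17 (-0.66 to 3.01) in NOD. Neither did the rise differ between strains beyond its error (NOD minus B10, 1.12 in S- cells, interval -0.97 to 3.21). The raw signals of NOD S- and S+ arrays overlapped. On the standardized log2 scale all NOD S- arrays lay above the S+ arrays, by a narrow gap (lowest S- 5.216, highest S+ 5.213).

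These signals are low. A signal of 16 was reached on 1 of 12 PreS arrays and on 11 of 12 S+ and S- arrays, so the size of the change rests on values near the floor of the array. With all signals under 16 raised to 16, the log2 difference of Casp4 was 0.55 in B10 S+ cells (adjusted p = 0.247), 0.87 in B10 S- cells (adjusted p = 0.0854), 0.39 in NOD S+ cells (adjusted p = 0.384) and 1.43 in NOD S- cells (adjusted p = 0.00498). Casp4 passed the filter on low signals through NOD S- alone, a group where it was high, so that its filtered tests are no independent support. Without a filter the calls in B10 S+ and S- cells were lost (adjusted p = 0.0901 and 0.0696). Without NOD S- replicate 1, the highest of its group, the difference was 3.16 (adjusted p = 0.0550). In B10 S+ cells the call was lost without S+ replicate 1 (1.79) or 2 (1.88, both adjusted p = 0.112), and without PreS TCR replicate 3 (adjusted p = 0.0578) or PreS TCR insHEL replicate 1 (adjusted p = 0.0550). In B10 S- cells it was lost without S- replicate 2 (2.45, adjusted p = 0.0564). The arrays with many myeloid transcripts bear on B10 S- cells: the highest Casp4 signal of that group, 66.5, was on the array with a myeloid sum of 1706, and without that array the difference was 1.78 (adjusted p = 0.124). In NOD S- cells the myeloid sums were 377, 422 and 668, within the 315 to 715 of NOD PreS arrays, where Casp4 was at most 14.0. The part of other cells in these signals was not tested. Of the B10 S+ and PreS arrays that shared a hybridization day, 1 pair differed by -0.26 and the other by 3.41, and the pairs for B10 S- and for NOD S+ differed by 2.95 and 2.48 (1 array each). No NOD S- array shared a day with a NOD PreS array, so that their difference has no within-day value, and with day as a fixed block it was 3.63 and no longer called, as was no other probeset in that fit.

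**Figure D1:**
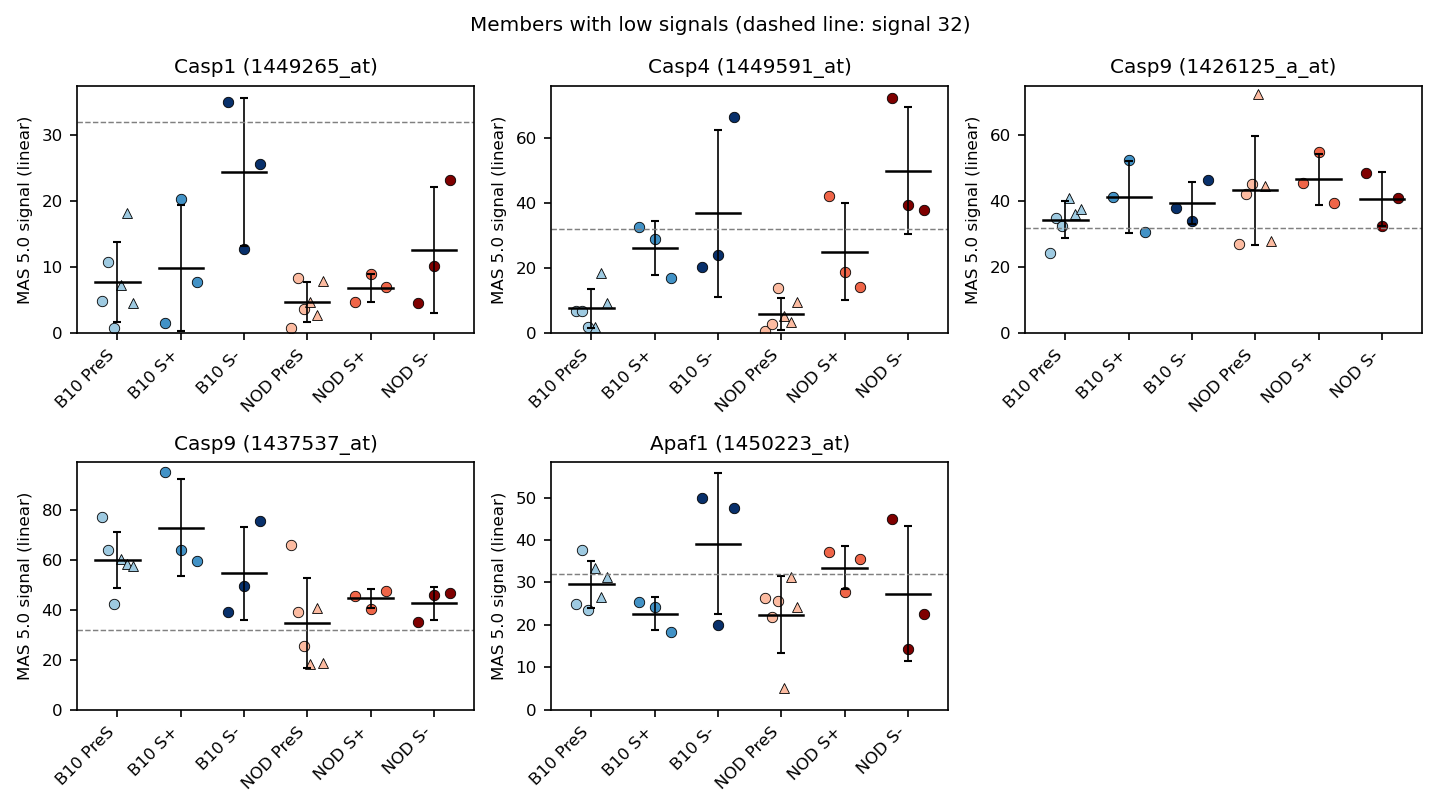
MAS 5.0 signal (linear axis) of the 5 member probesets with low signals on 24 arrays, in 6 groups. Each circle or triangle is 1 array (triangles, PreS cells of TCR insHEL mice), black lines are means with SD bars and the dashed line marks a signal of 32. Casp4 lay at 18.5 or less on every PreS array and between 14.3 and 72.4 on the S+ and S- arrays, and neither Casp9 probeset passed the test between states within a strain.

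Casp1, the caspase that processes interleukin 1, lies next to Casp4 (chromosome 9, 5298517 to 5307281, with 1567 bases between them). Its probeset (1449265_at) reached a signal of 32 on 1 of 24 arrays and was not tested. The B10 S- arrays held 35, 12.7 and 25.6, against 0.8 to 18.2 on B10 PreS arrays and 1.5, 20.3 and 7.7 on B10 S+ arrays. In NOD the signals were 0.7 to 8.4 on PreS arrays, 4.7, 8.9 and 6.9 on S+ arrays and 4.5, 10.2 and 23.1 on S- arrays. The 5 signals of 16 or more were 4 on S+ or S- arrays and 1 on a PreS array. The log2 difference in B10 S- cells was 1.79 with an interval that held 0 (-0.21 to 3.79).

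Casp2, the initiator activated with PIDD1 (chromosome 6, 42264902 to 42282508, probeset 1448165_at), had lower mean signals after selection, though no difference passed the threshold. PreS signals ran from 513.5 to 1041.7 in B10 (median 915) and from 507.5 to 1146.0 in NOD (median 784). The B10 S+ arrays held 583.2, 536.1 and 513.8 and the B10 S- arrays 699.5, 579.4 and 482.7. In NOD the S+ arrays held 323.9, 329.8 and 657.0 and the S- arrays 731.1, 452.7 and 645.7. In B10 the S+ and S- arrays thus lay below 5 of the 6 PreS arrays, and the sixth, PreS TCR replicate 1 at 513.5, lay among them.

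The log2 difference of Casp2 was -0.64 in B10 S+ cells (-1.13 to -0.16, adjusted p = 0.0692) and -0.55 in B10 S- cells (-1.04 to -0.07, adjusted p = 0.143). In NOD it was -0.94 in S+ cells (-1.62 to -0.27, adjusted p = 0.0604) and -0.44 in S- cells (-1.11 to 0.24, adjusted p = 0.400). Without B10 PreS TCR replicate 1 both B10 differences passed, at -0.78 (adjusted p = 0.0112) and -0.69 (adjusted p = 0.0301). The 5 arrays with a 3' to 5' ratio above 4 held Casp2 signals of 324 to 583, and the other 19 arrays signals of 453 to 1146. With that ratio as a covariate the difference in NOD S+ cells was -0.58 (adjusted p = 0.0594), and without the 2 NOD S+ arrays of highest ratio it was -0.31 (adjusted p = 0.759, where the lone S+ array left was assumed to vary like the other groups). The part of RNA integrity in these values was not tested beyond such fits.

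Casp8, the initiator at death receptors (chromosome 1, 58795233 to 58847503, probeset 1424552_at), was higher in all 3 B10 S+ arrays than in PreS cells, without passing the threshold. The B10 PreS arrays held 340.7 to 462.9 (median 394) and the NOD PreS arrays 336.8 to 469.4 (median 368). The B10 S+ arrays held 477.1, 712.7 and 704.6 and the B10 S- arrays 728.1, 523.4 and 386.8. In NOD the S+ arrays held 312.1, 324.0 and 552.3 and the S- arrays 559.5, 381.2 and 457.7. Only the B10 S+ group was clear of its PreS arrays, and the 2 lower NOD S+ arrays were again those with a 3' to 5' ratio above 5.

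The log2 difference of Casp8 in B10 S+ cells was 0.65 (0.17 to 1.12, adjusted p = 0.0633), and it passed under 8 of 26 alternatives, among them quantile normalization (0.72, adjusted p = 0.0354) and the 3' to 5' ratio as a covariate (0.86, adjusted p = 0.00459). In B10 S- cells it was 0.40 (-0.08 to 0.88), in NOD S+ cells -0.07 (-0.59 to 0.45) and in NOD S- cells 0.17 (-0.35 to 0.69). The log2 difference between NOD and B10 S+ cells was -0.70 (-1.24 to -0.16, adjusted p = 0.145). It was -0.95 (adjusted p = 0.0195) without NOD S+ replicate 3, which leaves the 2 NOD S+ arrays of high ratio and myeloid sum, and -0.21 without those 2 and B10 S- replicate 3, the arrays of highest myeloid sum. The difference between strains in the change from PreS to S+ was -0.71 (-1.37 to -0.06, adjusted p = 0.514), or -0.22 without those 3 arrays, and 0.358% of all probesets passed that test. The difference in NOD S+ cells was then 0.43 (adjusted p = 0.562), from a lone S+ array assumed to vary like the other groups.

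Casp9, the initiator of the apoptosome (chromosome 4, 141793612 to 141815978), was read by 2 probesets with low signals that did not move together. By 1437537_at it was lower in NOD than in B10 PreS cells. The B10 PreS signals of that probeset were 42.3 to 77.0 (median 59.4) and the NOD ones 18.3 to 65.8 (median 32.2), which overlap. The log2 difference was -0.89 (-1.42 to -0.36, adjusted p = 0.0493, and 0.102 without the filter on low signals). This was the only 1 of 7 member probesets to pass, where 4.13% of all probesets did. By 1426125_a_at the difference had the other sign, at 0.30 (-0.14 to 0.73, adjusted p = 0.457). Over the 24 arrays the 2 probesets had a Pearson correlation of -0.42.

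The call for 1437537_at rested on the edge of the threshold and held under 11 of 38 alternatives. PreS cells of TCR insHEL mice differed by -1.22 (adjusted p = 0.0515) and those of TCR mice by -0.56 (adjusted p = 0.890). On the 3 hybridization days that held PreS arrays of both strains, the difference was -0.92, -0.92 and -1.59 (1 NOD array against 1 in B10, 3 against 1 and 1 against 1). In S+ cells the signals of this probeset were 95.1, 64 and 59.5 in B10 and 45.6, 40.3 and 47.7 in NOD, without overlap, and the difference was -0.79 (-1.54 to -0.04, adjusted p = 0.241). Between the states within a strain, neither probeset passed, with log2 differences from PreS of -0.32 to 0.27.

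Apaf1, the scaffold that takes up Casp9 (chromosome 10, 90989311 to 91082743), passed in no comparison. By 1452870_at the B10 PreS signals were 124.9 to 394.7 (median 214) and the NOD ones 79.6 to 277.2 (median 111). The B10 S+ arrays held 213.6, 120.8 and 138.4, the B10 S- arrays 144.8, 177.4 and 170.4, the NOD S+ arrays 132.7, 150.1 and 149.3 and the NOD S- arrays 125.6, 136.3 and 126.0. The range was thus widest in the merged PreS groups, which held 6 arrays of both genotypes against 3 in the others. In NOD the log2 SD was 0.576 in PreS cells of TCR mice and 0.093 in those of TCR insHEL mice. It was 0.110 in NOD S+ and 0.144 in NOD S- cells. The log2 difference between NOD and B10 PreS cells was -0.74 (-1.29 to -0.19, adjusted p = 0.138), which passed without NOD PreS TCR replicate 1 (-0.95, adjusted p = 0.0228). It was -0.32 with PreS cells of TCR mice only and -1.15 with those of TCR insHEL mice only (adjusted p = 0.0577). The 3 NOD PreS arrays of TCR insHEL mice held 79.6, 91.7 and 98.3 and the 3 of TCR mice 277.2, 123.0 and 169.5, with no overlap, where those of B10 overlapped. A TCR insHEL group also lay clear of its TCR group, on the higher side, for Casp8 in NOD and for Casp9 1426125_a_at in B10. The share of all probesets without overlap was not counted, and no difference between the PreS genotypes was tested. By the second probeset, 1450223_at, a signal of 32 was reached on 7 of 24 arrays, and the difference between strains at PreS was -0.54 (-1.24 to 0.16).

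Casp6, the effector that cleaves lamins (chromosome 3, 129901415 to 129914112, probeset 1415995_at), was lower in NOD S+ cells. Its signals were 172.2, 183.5 and 254.8 there, below all 6 NOD PreS arrays (261.4 to 458.3, median 302). NOD S- arrays lay between, at 240.7, 244.7 and 268.7. The B10 arrays held 215.9 to 311.0 in PreS cells (median 272), 279.1, 236.2 and 332.5 in S+ cells and 329.6, 289.0 and 304.7 in S- cells, with no change from PreS to S+ beyond the spread (0.03, -0.36 to 0.41).

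In NOD S+ cells Casp6 fell by 0.78 on the log2 scale (95% interval -1.26 to -0.30, adjusted p = 0.0334, and 0.0860 without the filter on low signals). The difference in NOD S- cells was -0.47 (-0.95 to 0.01, adjusted p = 0.197). The 2 lowest arrays were those with Gapdh 3' to 5' ratios of 5.84 and 5.36, and the third, at 254.8, had a ratio of 1.86. With the ratio as a covariate the difference was -0.67 (adjusted p = 0.0439), and with the third array alone, assumed to vary like the other groups, it was -0.44 (adjusted p = 0.543). Leaving out only replicate 1 or only replicate 2 gave -0.67 (adjusted p = 0.155) and -0.72 (adjusted p = 0.138). The single pair of NOD S+ and PreS arrays of 1 hybridization day differed by -0.60, and with MAS 5.0 scaling only the difference was -0.67 (adjusted p = 0.0689). The 2 lowest arrays also had the high myeloid sums, and the parts of RNA integrity and of other cells cannot be told apart from each other on them. The difference between strains in this change was -0.81 (-1.35 to -0.26, unadjusted p = 0.00570, adjusted p = 0.265), or -0.47 without the 3 arrays of highest ratio, and no member passed in this or the other 2 such tests, where 0.358%, 0.101% and 0.148% of all probesets did. NOD and B10 S+ cells differed by -0.51 (-0.96 to -0.06, adjusted p = 0.206), or -0.17 without those 3 arrays, with a background of 3.70% for that comparison and 2.32% for S- cells, in both of which no member passed.

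**Figure D2:**
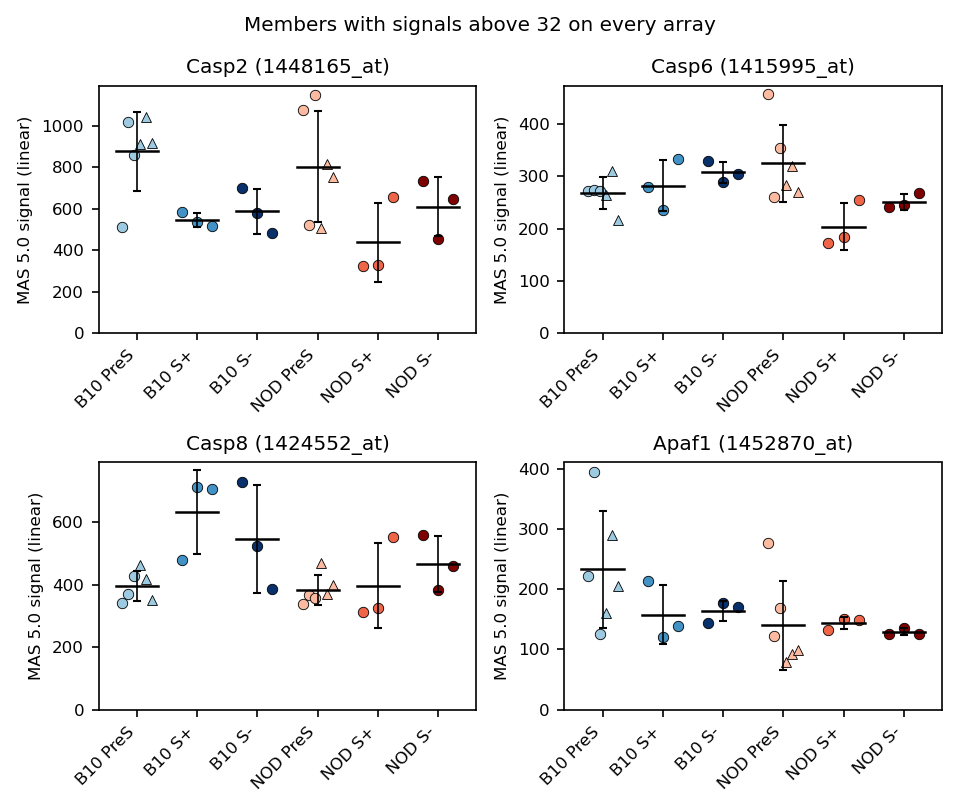
MAS 5.0 signal (linear axis) of Casp2, Casp8, Casp6 and Apaf1 (1452870_at) on 24 arrays, in 6 groups. Each circle or triangle is 1 array (triangles, PreS cells of TCR insHEL mice), with means and SD bars in black. Casp6 in NOD S+ cells (172.2 to 254.8) lay below the NOD PreS arrays, and Casp8 in B10 S+ cells (477.1 to 712.7) above the B10 PreS arrays.

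**Figure D3:**
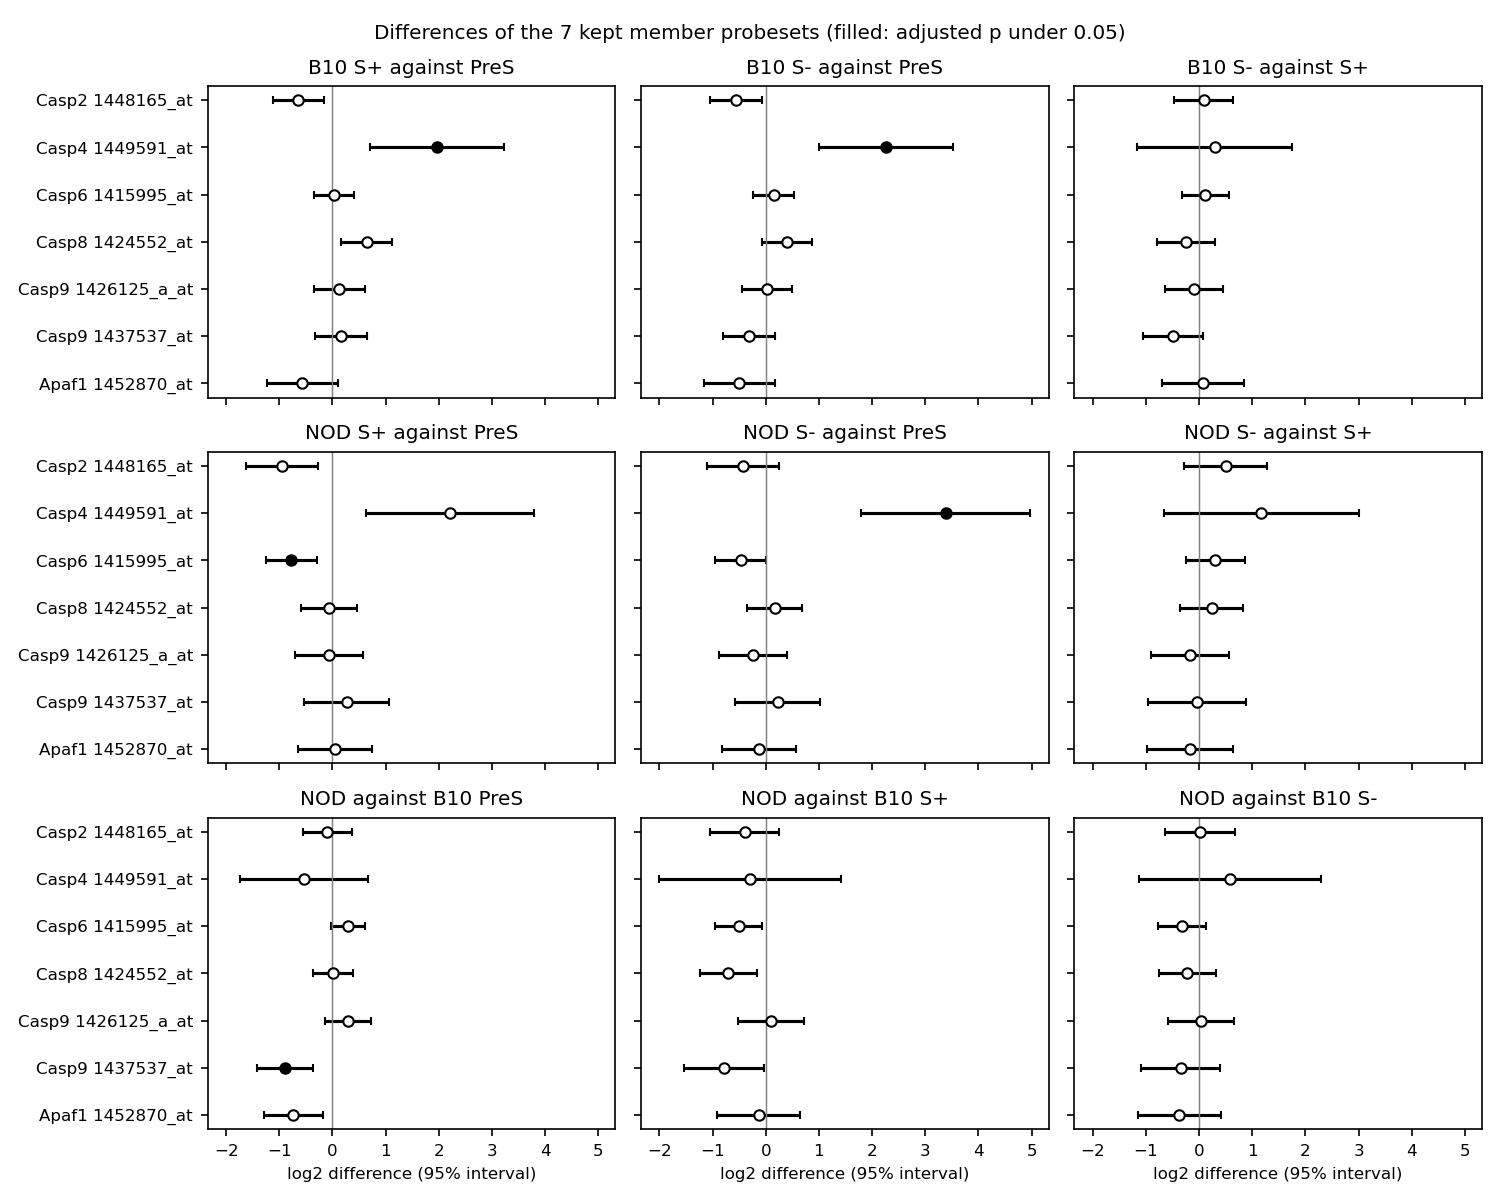
Log2 differences of the 7 tested probesets with 95% intervals, for 3 comparisons within B10, 3 within NOD and 3 between strains, where filled points passed an adjusted p of 0.05 in limma. The intervals of Casp4 lay above 0 in all 4 comparisons with PreS cells. The filled points were Casp4 (3 times), Casp6 in NOD S+ cells and Casp9 1437537_at at PreS. Of these only Casp4 in NOD S- cells stayed without the filter on low signals.

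The plot of signals against array quality shows the context of these values. It sets Casp4 beside the myeloid sum, and Casp2 and Casp6 beside the 3' to 5' ratio, with both lowest Casp2 signals on the 2 arrays of highest ratio.

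**Figure D4:**
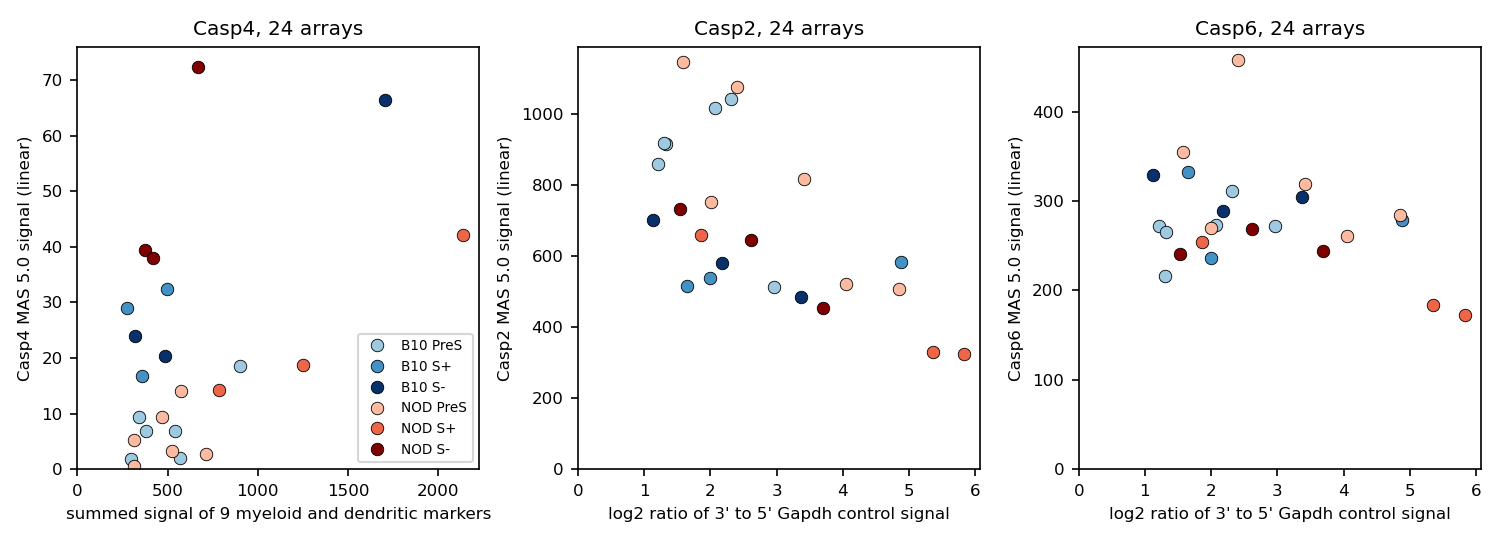
Signal (linear axis) of Casp4 against the summed signal of 9 myeloid and dendritic markers, and of Casp2 and Casp6 against the log2 ratio of the 3' to the 5' Gapdh control probeset; each point is 1 of 24 arrays, coloured by group. NOD S- arrays hold Casp4 signals of 38.0 to 72.4 at myeloid sums of 377 to 668, and the 2 NOD S+ arrays with ratios above 5 hold the lowest Casp2 and Casp6 signals of all 24.

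By their course over the 24 arrays, the members had different companions (Pearson correlation of standardized log2 signals, over 11768 probesets of other genes, as a description). The arrays differ in state and quality, which such correlations share. Casp2 was most like Nfya (0.92), a subunit of the factor that binds CCAAT boxes, Srsf1 (0.88), a splicing factor, and Uqcrfs1 (0.88), a subunit of the respiratory chain. Casp4 was most like Ms4a4c (0.86), the costimulatory receptor Tnfrsf9 (0.85) and the interferon-induced Rsad2 (0.85). The window of Rsad2 held 2 matches of AANNGAAA, as did that of Casp4 above, while that of Ms4a4c held none. Tnfrsf9 had 1 window with 1 match and another with none. The motif lay in 23.9% of all windows, and shared control of these genes was not tested.

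Casp8 was most like Gimap6 (0.84), a GTPase of lymphocytes, Ddit3 (0.82), a stress-response factor, and Itm2a (0.82), a gene of maturing thymocytes. Casp6 was nearest to Mcts1 (0.81), Polr3k (0.78) and Scarb2 (0.78). Casp9, by 1437537_at, was nearest to Rab6b (0.81), Pik3r4 (0.81) and Mfn2 (0.79), and Apaf1 to Atp10a (0.80), Ermp1 (0.76) and Mtdh (0.75). Among the members themselves the highest correlation was that of Apaf1 with Casp9 1437537_at (0.64), followed by Casp2 with Casp6 (0.61). With the other Casp9 probeset, 1426125_a_at, Apaf1 had a correlation of the other sign (-0.44).

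Around the members, the genes that feed, restrain or are cut by caspases were read in the same way. Of 46 such genes listed, 39 were measured and 34 tested. In B10 S+ cells 7 rose and 5 fell, in B10 S- cells 4 rose and 2 fell, in NOD S+ cells 3 rose and 4 fell and in NOD S- cells 4 rose and 4 fell, where 16.8%, 11.2%, 14.8% and 11.2% of all probesets passed. The median difference of the 34 was between -0.03 and 0.09 in these comparisons, and that of all probesets between 0.01 and 0.04. Between S- and S+ cells 2 were higher in B10 S- cells, where 1.67% of all probesets passed, and none passed in NOD.

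Of the death receptors and their ligand (4 of 5 tested), Tnfrsf25, a receptor that signals through a death domain, rose in all 4 comparisons with PreS. Its mean signal was 49.7 ± 9.97 (SD, n = 6) in B10 PreS cells, 297.6 ± 63.0 (n = 3) in S+ and 382.6 ± 59.3 (n = 3) in S- cells, and in NOD 43.3 ± 14.3, 289.6 ± 129 and 414.0 ± 33.2. Fasl, the ligand of Fas, rose in 3 of the 4, by a log2 difference of 1.92 in B10 S- and 1.86 in NOD S- cells (adjusted p = 0.00214 and 7.15e-04). In NOD S+ cells it differed by 0.75 (adjusted p = 0.0794). Tnfrsf1a, the main receptor of TNF, rose by 0.51 in B10 S+ cells (adjusted p = 0.0472). Fas did not pass in any of the 4, with differences from -0.53 to 1.28.

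Among the adaptors and cofactors (8 of 11 tested), 1 fell in B10 S+ cells and 1 in NOD S+ cells. Pidd1, the activator of Casp2, fell by 2.72 on the log2 scale in B10 S+ cells, from 61.1 ± 30.3 to 9.93 ± 5.24 (adjusted p = 2.48e-04), with signals near the floor. It differed by -0.87 in B10 S-, -1.99 in NOD S+ and -1.39 in NOD S- cells, without passing (limma adjusted p = 0.185, 0.102 and 0.275). Pycard, the adaptor of inflammasomes, differed by -1.01 in NOD S+ cells and fell there (adjusted p = 0.0344), and by 0.04 in B10 S+ cells. The difference between strains in this change did not pass (-1.05, limma adjusted p = 0.311). NOD S+ replicates 1 and 2 had the high 3' to 5' ratios and myeloid sums, whose part in the fall was not tested. Fadd, through which Casp8 is recruited, and Cycs, the cytochrome c that triggers Apaf1, passed in no comparison with PreS. The 4 proteins released from mitochondria (Aifm1, Diablo, Endog and Htra2) did not pass in any comparison either.

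The inhibitors (7 of 10 tested) went both ways. Birc5, an inhibitor family member that acts in mitosis, fell in all 4 comparisons, from 768 ± 174 to 81.2 ± 25.7 in B10 S+ cells (log2 difference -3.28, adjusted p = 9.94e-07). It was higher in B10 S- than in S+ cells by 1.36 (adjusted p = 0.0275), and in NOD than in B10 S+ cells by 1.15 (adjusted p = 0.0365), the only listed gene to pass between the strains. Birc3, an inhibitor in TNF receptor signalling, rose in all 4, by 1.61 to 1.85. Apip, which binds Apaf1, fell in NOD S+ and S- cells (-0.89 and -0.99) and in B10 S+ cells (-0.70, adjusted p = 0.0480). Cflar, the inhibitor of Casp8, rose in B10 S+ cells by 0.80 (adjusted p = 0.0498) and Birc2 by 0.70 (adjusted p = 0.0440). Neither passed in the other comparisons with PreS. There Cflar differed by 0.19 in B10 S-, 0.81 in NOD S+ and 0.96 in NOD S- cells, and Birc2 by 0.49, 0.14 and 0.26.

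Of the substrates (11 of 12 tested), Lmna, the lamin A that Casp6 cleaves, rose in all 4 comparisons. Its mean signal went from 11.8 ± 4.16 in B10 PreS to 71.7 ± 30.1 in S+ and 198.5 ± 41.7 in S- cells, and in NOD from 15.5 ± 8.79 to 96.6 ± 64.6 and 279.4 ± 27.1. Bid, which Casp8 cuts to reach the mitochondrial route, fell in all 4. In B10 it was at 167 ± 18.3 in PreS, 34.5 ± 7.34 in S+ and 106 ± 13.1 in S- cells, and S- lay above S+ cells by 1.62 (adjusted p = 0.00246). Lmnb1, another lamin, fell by 1.18 in B10 S+ cells and by 0.95 in NOD S- cells. The other caspases measured, Casp12 and Casp14, did not pass the filter on low signals.

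**Figure D5:**
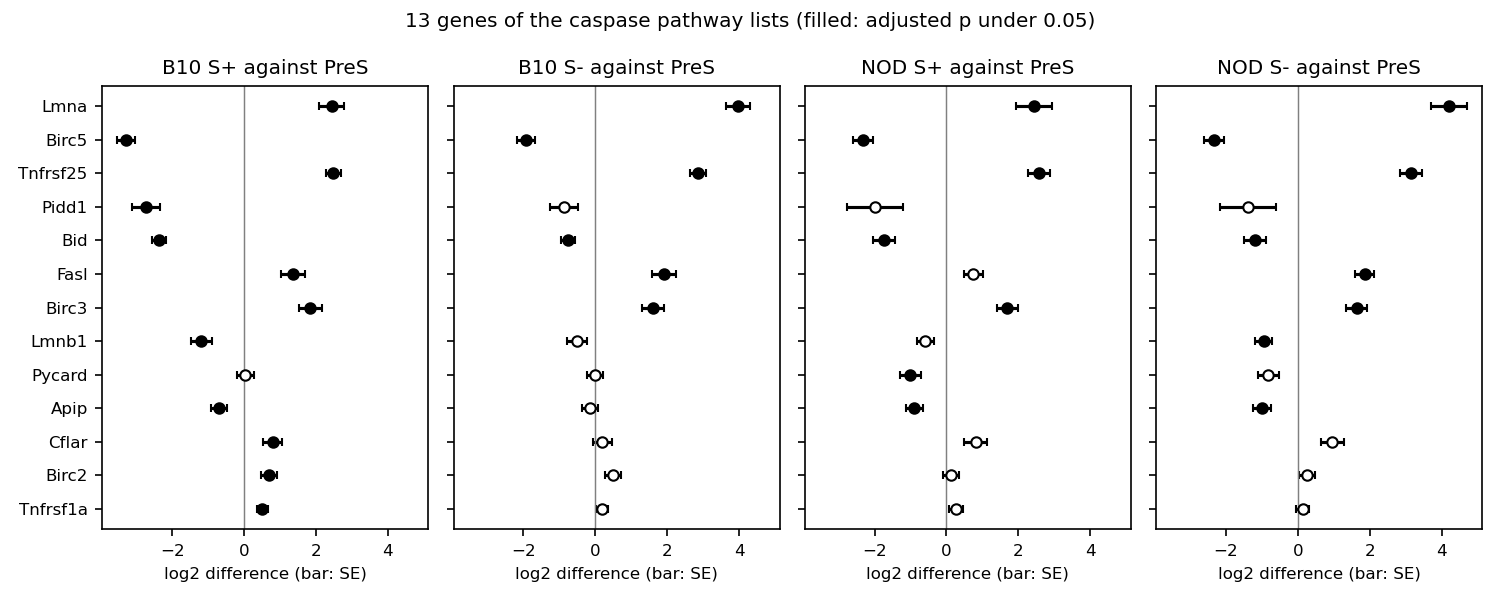
Log2 differences from PreS cells (bars, SE) of 13 listed genes in S+ and S- cells of B10 and NOD, where filled points passed an adjusted p of 0.05 in limma. Lmna, Tnfrsf25 and Birc3 lay above 0 and Birc5 and Bid below 0 as filled points in all 4 panels.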

How the data were processed

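RNA of sorted mouse thymocytes was measured on 24 Affymetrix 430A arrays, 3 for each of 8 groups. The authors deposited MAS 5.0 signals, linear intensity values scaled so that the trimmed mean of each array was near 150 (150.046 to 150.096). A 3' array does not count reads, and its precision is limited by the number of arrays. The study describes the replicates as independent RNA pools of sorted cells. Nothing in the labels says that the pools came from separate mice, so p-values measure the spread between these samples. The signals were put on the log2 scale (0 set to 0.1), and each array was standardized to mean 0 and variance 1 and returned to a common log2 scale. After removal of 64 control probesets, 12838 of 22626 were kept with a signal of at least 32 on all 3 arrays of 1 condition, which stands in for the present calls of the study. Groups were compared with limma 3.58.1 in R 4.3.3 (Benjamini-Hochberg, threshold 0.05), within each strain over 12 arrays, and between strains, with interactions, over all 24. Scripts were tested on simulated data. Alternatives were a plain t-test with p adjusted in the same way, the MAS 5.0 scaling with nothing added, and quantile normalization. Others were raising signals under 16 to 16, and dropping the filter or setting it at 64. The replicate number or hybridization day also entered as a block. The last were PreS arrays of 1 mouse genotype, other sets of arrays in the fit, and each array left out. Fits with the 3' to 5' ratio, or without arrays of high ratio or myeloid sum, were chosen after seeing the data. Replicate numbers did not pair the samples: deviations of same-numbered samples correlated at 0.0508 on average (-0.314 to 0.632 over 36 pairs). Genes were named through the platform annotation (20380 probesets with 1 symbol). Each listed pathway gene and cell marker was read by its probeset of highest mean signal, and other probesets of these genes were not examined. All members are named, with the listed pathway genes that passed in any comparison (up to 15 by size) and, for each member, the 3 probesets of other genes with the highest correlation. Fas, Fadd, Cycs and the proteins released from mitochondria fall outside this rule and were chosen after their values were seen. Members and lists were chosen with earlier results of these data known.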

Additional observations from a re-analysis of the deposited data

Results flagged for a closer look

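Among 18 groups of 6 PreS signals, 1 array stood apart from the other 5 by Dixon's test in 2 cases, where chance gives about 1 in 20. For Casp2 in B10 PreS cells, TCR replicate 1 was lowest at 513.5, and its gap to the next array was 0.715 of the range of the group. For Apaf1 by 1450223_at in NOD PreS cells, TCR insHEL replicate 1 was lowest at 5.2, with a gap of 0.794 of the range. This NOD array is also 1 of the 5 with a Gapdh 3' to 5' log2 ratio above 4.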

How the results depend on the processing

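The number of the 7 member probesets that passed was the same under 125 of 161 alternatives that kept all arrays of the groups or left out several together. All the changes fell in the 5 comparisons that held a call. The other comparisons held no call in the main fit or under these alternatives, so the pooled count says little about how stable the calls were. For B10 S+ against PreS the count was 1. It was 0 by the plain t-test, with a floor of 16, without a filter and with a filter at 64. It was also 0 with day as a fixed block and with all 24 arrays in 1 fit. It was 2 with day as a random block, with quantile normalization and without the arrays of highest myeloid sum. For B10 S- it was 0 rather than 1 by the t-test, with a floor of 16, without a filter, at 64, with day as a fixed block, with PreS of the same mice and without the highest myeloid arrays. For NOD S+ it was 0 without a filter, with day as a fixed block, with PreS of the same mice, and without the arrays of highest ratio or myeloid sum, 2 at a filter of 64, and 3 with all 24 arrays. For NOD S- it was 0 at a filter of 64 and with day as a fixed block. For NOD against B10 PreS it was 0 by the t-test, at 64, without a filter, with day as a fixed block, with PreS of TCR or of TCR insHEL mice only, with only the arrays compared, and without the arrays of highest ratio or myeloid sum. With the replicate number as a block, though the numbers do not pair the samples, the count was 2 for NOD S+ (Casp2 and Casp6), 0 for NOD against B10 PreS, and 1 for B10 S+, B10 S- and NOD S-. Leaving out each array gave 0 to 2 for B10 S+, B10 S-, NOD S+, NOD against B10 PreS and NOD against B10 S+, and 0 to 1 for NOD S-. A filter at 64 removes Casp4 and both Casp9 probesets. The cause of the other changes was not tested. None of the 5 called differences held its call under every alternative, and none changed sign. Of all 84 member differences, 40 changed sign under an alternative, none of them called. Over all probesets the calls ran from 5 to 3046 in NOD S+ cells, from 0 to 2363 in NOD S- cells, from 301 to 1844 in B10 S- cells, from 0 to 171 between NOD S- and S+ cells and from 46 to 2311 between strains in S+ cells. With MAS 5.0 scaling only, 1106 probesets were higher and 833 lower in NOD S+ cells (787 and 1112 in the fit reported), 997 and 579 in NOD S- cells (708 and 729), 727 and 703 in B10 S- cells (567 and 873), 1085 and 1095 in B10 S+ cells (946 and 1212), and 232 and 168 between strains in S+ cells (236 and 239). That scaling moved the median of all probesets by 0.14 in NOD S+ and 0.16 in NOD S- cells. Signals near 16 or below, as for Casp1 and Casp4 before selection, limit what their fold changes can show.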
